A study of Felis catus with 6 samples.

Results

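GREM1, THBS4 and TRAM2 were 3 of the 1929 identifiers with a gene name, among 21529 Ensembl identifiers measured in biopsies of feline chronic gingivostomatitis (FCGS) and of healthy oral mucosa. They were chosen from the study's list of genes at least 2-fold different between the tissues, in the same libraries described here, so their lesion against healthy difference is given as a description and without a test. The symbols stood with ENSFCAG00000009420 (GREM1), ENSFCAG00000003879 (THBS4) and ENSFCAG00000002975 (TRAM2), each found by matching the 6 tissue values of the study's table to the deposited values. The FCGS lesion was inflamed mucosa lateral to the palatoglossal folds, and the healthy biopsy was grossly normal mucosa beside it in the same animal. Each of 3 cats, which the labels name Bart, Jerome and Sadie, gave 1 full-thickness biopsy of each kind, 6 libraries in all. All animals had the disease and received buprenorphine for pain but no immunosuppressive therapy, so the healthy mucosa is that of a diseased cat. A full-thickness biopsy mixes epithelium, connective tissue, vessels, leukocytes and sometimes muscle, and in such bulk tissue fewer cells of a type and less RNA per cell cannot be told apart.

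GREM1 encodes gremlin-1, a secreted protein that binds bone morphogenetic proteins (BMPs) and keeps them from their receptors. BMPs are signals of the TGF-beta family that act through SMAD proteins and switch on target genes such as ID1, and gremlin-1 is known from connective tissue cells of the gut and of fibrotic organs. THBS4 encodes thrombospondin-4, a matrix glycoprotein of tendon, muscle, vessel wall and healing tissue that forms pentamers and binds collagen. TRAM2 encodes a membrane protein of the endoplasmic reticulum (ER) that belongs to the apparatus through which new secreted proteins enter the ER, and in cultured cells it has been linked to the synthesis of type I collagen together with the calcium pump SERCA2. All 3 thus bear on how connective tissue is built, though at different steps: a signal outside the cell, a component of the matrix and the secretory route.

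Values are FPKM, the reads of a gene divided by the length of its transcript and by the size of the library, so levels of different genes can be set side by side. Read totals are not part of the tables, and depth is therefore unknown. Values under 0.1 FPKM stepped as whole reads would, and the step in the lesion of Sadie was 1.72 times that in healthy mucosa of Bart, the widest gap between libraries, which is a ratio of reads only if nothing but reads set the scale. The 10 most abundant identifiers took 40.8% to 47.7% of the summed FPKM of a library. The 6 libraries listed 4688 to 4927 identifiers at 0, where none of the 3 genes stood.

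GREM1 measured 384, 119 and 184 FPKM in the lesions of Bart, Jerome and Sadie, against 19.9, 21.2 and 6.83 FPKM in their healthy mucosa. Every lesion lay above every healthy library, and the lowest lesion stood well clear of the highest healthy value. Its mean was 229 ± 138 FPKM in lesions, against 16.0 ± 7.95 FPKM in the healthy biopsies (SD over 3 cats). On the log2 scale, with values below 1 FPKM raised to 1, the mean difference was 3.84 (standard error 0.60), or 14.3-fold. Among all 21529 identifiers, GREM1 held rank 326 in the lesion of Bart, 921 in that of Jerome and 566 in that of Sadie, against 4669, 4538 and 8319 in their healthy mucosa. In the lesions it was thus one of the more abundant transcripts, within the top 4.28% of identifiers in every cat.

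THBS4 measured 58.9, 40.4 and 21.9 FPKM in the lesions of Bart, Jerome and Sadie, against 8.34, 7.92 and 1.28 FPKM in their healthy mucosa. The groups again did not overlap, and the cats kept the same order in both tissues, with Bart highest and Sadie lowest. The mean was 40.4 ± 18.5 FPKM in lesions, against 5.84 ± 3.96 FPKM in the healthy biopsies (SD over 3 cats), with a log2 difference of 3.09 (standard error 0.81), or 8.52-fold. Healthy mucosa of Sadie, at 1.28 FPKM, lay close to the floor of 1 FPKM and 6.51 times below the highest healthy value.

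TRAM2 measured 42.1, 57.0 and 68.9 FPKM in the lesions of Bart, Jerome and Sadie, against 6.37, 13.6 and 1.97 FPKM in their healthy mucosa. Its lesions were the most alike of the 3 genes, with a highest value 1.64 times the lowest, whereas its healthy libraries spread over 6.93 times. The mean was 56.0 ± 13.4 FPKM in lesions, against 7.32 ± 5.89 FPKM in the healthy biopsies (SD over 3 cats), with a log2 difference of 3.31 (standard error 0.70), or 9.89-fold. Sadie had the highest TRAM2 of the lesions and the lowest of the healthy libraries.

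**Figure D1:**
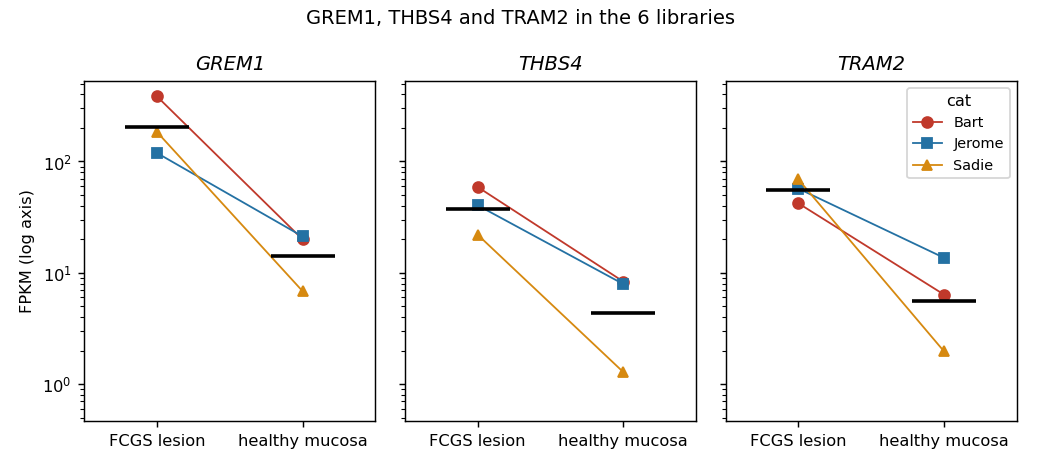
FPKM (vertical log axis) of GREM1, THBS4 and TRAM2 in FCGS lesions (left of each panel) and healthy mucosa (right). Each line joins the 2 biopsies of 1 cat, and black bars are geometric means over 3 cats. All lines fall from lesion to healthy mucosa, and the line of Sadie is the steepest for each gene.

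The size of the difference varied between cats in the same order for all 3 genes, largest in Sadie and smallest in Jerome. GREM1 was 19.3-fold higher in the lesion of Bart, 5.62-fold in that of Jerome and 26.9-fold in that of Sadie than in the healthy mucosa of the same cat. THBS4 was 7.07-fold, 5.10-fold and 17.1-fold higher in the lesions of Bart, Jerome and Sadie. For TRAM2 the values were 6.60-fold, 4.18-fold and 35.0-fold in the same cats. This order over cats was also that of 13.1% of the 13327 tested identifiers and of 15.2% of the 1292 named genes with a positive difference. Sadie's healthy biopsy held the lowest value of each of the 3 genes, and without that library the log2 differences were 3.31 (GREM1), 2.20 (THBS4) and 2.56 (TRAM2). With neither biopsy of Sadie they were 3.38, 2.59 and 2.39 for the same genes.

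At an adjusted p under 0.05, limma called 707 of the 13327 tested identifiers higher in lesions, 5.31%. GREM1 and TRAM2 were among them while THBS4 was not. This fit leaves out the pairing by cat. Standard errors come from it, as do p-values unless another setting is named. With the cat as a block, 1622 identifiers (12.2%) were called higher and 11.1% lower, and all 3 genes were among the higher. Of the 1929 identifiers with a name, 21.1% were called higher in the fit without the block. The blocked share of named identifiers was not computed, so blocked counts of the lists below have no background among named genes. Without the lesion of Sadie, or the healthy biopsy of Jerome or Sadie, or both biopsies of Jerome or of Sadie, none of the 3 was called, in fits that called 0 to 68 identifiers higher of 1117 to 1579 with an unadjusted p under 0.05. Since the genes were picked for this difference, nothing about them is read from these calls. By size, GREM1 held place 9, TRAM2 place 32 and THBS4 place 55 among the differences of named genes (50, 99 and 136 among all tested identifiers). All lesions lay above all healthy libraries in 2220 of the 13327 identifiers (16.7%).

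Inside one tissue, the 3 genes did not share an order over cats. Lesion levels ran Bart, Sadie, Jerome for GREM1, Bart, Jerome, Sadie for THBS4, and Sadie, Jerome, Bart for TRAM2, each from high to low. GREM1 thus exceeded TRAM2 9.12-fold in the lesion of Bart, but 2.09-fold in that of Jerome and 2.67-fold in that of Sadie. THBS4 stood at 1.40 times TRAM2 in the lesion of Bart, 0.708 times in that of Jerome and 0.319 times in that of Sadie. In healthy mucosa, GREM1 and TRAM2 both ran Jerome, Bart, Sadie, and THBS4 ran Bart, Jerome, Sadie, with 8.34 and 7.92 FPKM in the first 2. With 1 library per cat and tissue, these orders have no replicate and no test.

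Marker genes of cell types, from lists chosen with earlier results of these data known, were read for the same orders. Of 27 fibroblast and mural markers 10 had a name, and all 10 were highest in the lesion of Bart, 8 of them in the order of GREM1 and 2 in that of THBS4. Vimentin (VIM), the intermediate filament of connective tissue cells, measured 3448, 1181 and 1467 FPKM in the lesions of Bart, Jerome and Sadie, against 739.7, 429 and 565 FPKM in healthy mucosa. TAGLN, a protein of contractile cells, measured 1084, 303 and 324 FPKM in those lesions, against 123, 54.8 and 96.6 FPKM in healthy mucosa. All 12 named endothelial markers were likewise highest in the lesion of Bart, 8 in the order of GREM1 and 4 in that of THBS4. Of the tested identifiers, 21.7% had the lesion order of GREM1 and 19.5% that of THBS4.

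TRAM2 had the reverse of the THBS4 order (Sadie, Jerome, Bart), and so had 12 of the 13 named plasma and B cell markers, against 21.0% of tested identifiers. None of the 10 fibroblast and mural, the 12 endothelial and the 12 neutrophil and myeloid markers had it. CD79A, a chain of the B cell receptor, measured 151, 447 and 1114 FPKM in the lesions of Bart, Jerome and Sadie, against 11.0, 86.1 and 29.6 FPKM in healthy mucosa. TNFRSF17, the survival receptor of plasma cells, measured 139, 357 and 657 FPKM in those lesions, against 6.69, 89.8 and 23.9 FPKM in healthy mucosa. Healthy mucosa of Jerome, the highest of the healthy libraries for TRAM2, was also the highest for both. The lowest was that of Bart for both, but that of Sadie for TRAM2. Plasma cells are known for making secreted protein in bulk and for their dense ER. Of the 26 named skeletal muscle markers, 10 had the order of TRAM2 too, and all 26 were lowest in the lesion of Bart, as TRAM2 was. The order covers 3 lesions without a replicate, and it was shared by markers of more than one cell type. The part of any of these cells in the TRAM2 values was not tested.

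**Figure D2:**
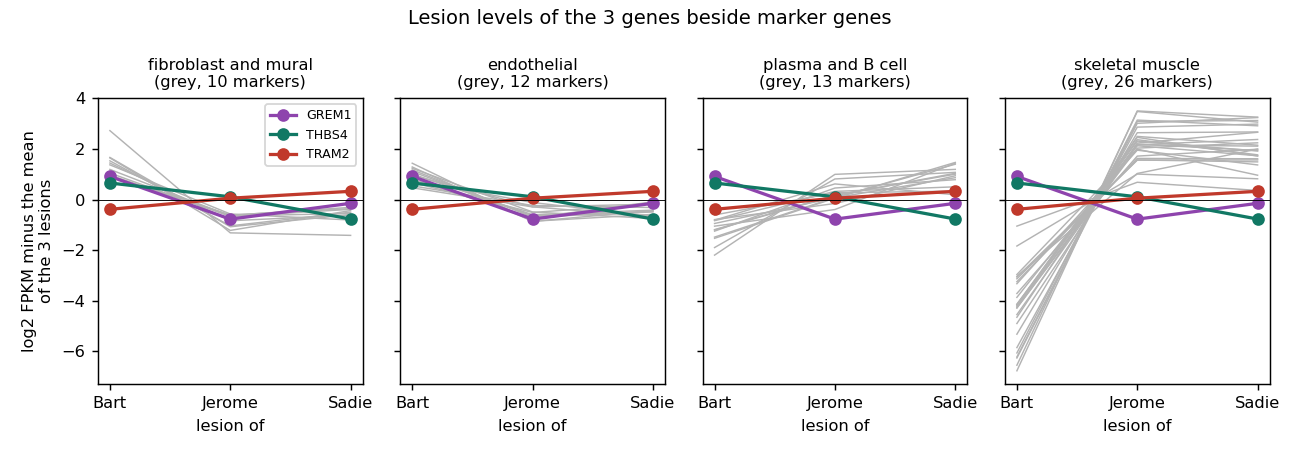
Level in each lesion (horizontal axis, by cat) as log2 FPKM minus the mean of the 3 lesions (vertical axis) for GREM1, THBS4 and TRAM2 in colour and for marker genes in grey. GREM1 and THBS4 fall from Bart to Jerome as the 10 fibroblast and mural and the 12 endothelial markers do, and TRAM2 climbs toward Sadie with most of the 13 plasma and B cell markers. The 26 skeletal muscle markers are far lower in Bart than in the other lesions.

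Skeletal muscle genes were abundant in 3 of the 6 libraries. The 26 named muscle markers summed to 56.7, 7430 and 6719 FPKM in the lesions of Bart, Jerome and Sadie, against 22.8, 49.9 and 3239 FPKM in healthy mucosa. CKM, the creatine kinase of muscle, was at 0.937 FPKM in the lesion of Bart, where THBS4 had its highest value of 58.9 FPKM. In healthy mucosa of Sadie CKM stood at 716 FPKM, and THBS4 there had its lowest value of 1.28 FPKM. Within Jerome and within Sadie both were higher in the lesion, where CKM measured 1234 and 1041 FPKM, against 1.33 and 716 FPKM in healthy mucosa. THBS4 is known from muscle, and the part of muscle in its values was not tested. None of the 26 markers passed the limma test (1 had an unadjusted p under 0.05, and 1 passed with the cat as a block). Leaving out the lesion of Bart gave 2 calls, and 19 then had an unadjusted p under 0.05.

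Summed levels of the other lists differed between the tissues as well. Fibroblast and mural markers summed to 1918 to 6601 FPKM in lesions, against 646 to 1198 FPKM in healthy mucosa. The 12 endothelial markers summed to 916 to 2224 FPKM in lesions, against 228 to 498 FPKM in healthy mucosa, and the 13 plasma and B cell markers to 467 to 2789 FPKM and 36.0 to 309.9 FPKM in the same tissues. No marker of these 3 lists was listed at 0 in any library. Of the 13 plasma and B cell markers, however, 7 were under 1 FPKM in healthy mucosa of Bart, 1 in that of Jerome and 3 in that of Sadie. Of the 12 named neutrophil and myeloid markers, 11 were higher in the lesion of every cat, with a median log2 difference of 2.38 over the 12. Limma called 4 higher and none lower, against 21.1% and 14.3% of named identifiers. With the block it called 10 and none, against 12.2% and 11.1% of all tested identifiers. The 12 markers summed to 2503 to 16903 FPKM in lesions, against 5830 to 41523 FPKM in healthy mucosa. That sum was set by the gene outside those 11, S100A8, a protein also made by oral epithelium. S100A8 measured 6832, 16030 and 1962 FPKM in lesions, against 41366, 25490 and 5724 FPKM in healthy mucosa of Bart, Jerome and Sadie. CD14, of monocytes and macrophages, measured 219, 205 and 108 FPKM in lesions, against 64.1, 72.6 and 25.4 FPKM in healthy mucosa. Of 32 epithelial markers only 6 had a name, with COL17A1, of the basal cells, at 51.4, 114 and 42.7 FPKM in lesions, against 504, 222 and 240.4 FPKM in healthy mucosa (log2 difference -2.25, adjusted p = 0.038 from limma). In 5 of the 9 fits that left out a library or a cat, limma called none of the 6 (2 to 4 had an unadjusted p under 0.05). KRT4, the keratin of mature oral epithelium, reached 9.0, 2534 and 569 FPKM in lesions, against 2089 FPKM in the healthy biopsy of Bart, and was listed at 0 in healthy mucosa of Jerome and Sadie.

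Each gene was also set against the mean log2 level of a marker list in the same library, a comparison chosen after the values were seen. Marker values under 1 FPKM were raised to 1 first. This understates the difference of the plasma and B cell list, and it raises the values set against that list. Against the 10 fibroblast and mural markers, GREM1 kept a log2 difference of 1.55 for Bart, 0.85 for Jerome and 3.31 for Sadie. The genes were chosen for a large difference, so the sign of such a remainder supports nothing. Against the same markers THBS4 differed by 0.10, 0.71 and 2.66 in Bart, Jerome and Sadie. For TRAM2 the values were 0.01, 0.43 and 3.69, so that in Bart the gene and the markers differed between the tissues by nearly the same amount. Against the 13 plasma and B cell markers, TRAM2 was at -0.06 in Bart, -0.27 in Jerome and 1.15 in Sadie, positive in 1 of 3 cats. THBS4 was at 0.04, 0.02 and 0.12 against that list, and GREM1 at 1.48, 0.16 and 0.77. Against the 12 neutrophil and myeloid markers, TRAM2 was at 0.16, 0.16 and 2.68 in Bart, Jerome and Sadie. THBS4 was at 0.26, 0.45 and 1.64 there, and GREM1 at 1.70, 0.59 and 2.30. The markers with a name are those at least 2-fold different in the study, which leans these lists toward genes that differ in these libraries.

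**Figure D3:**
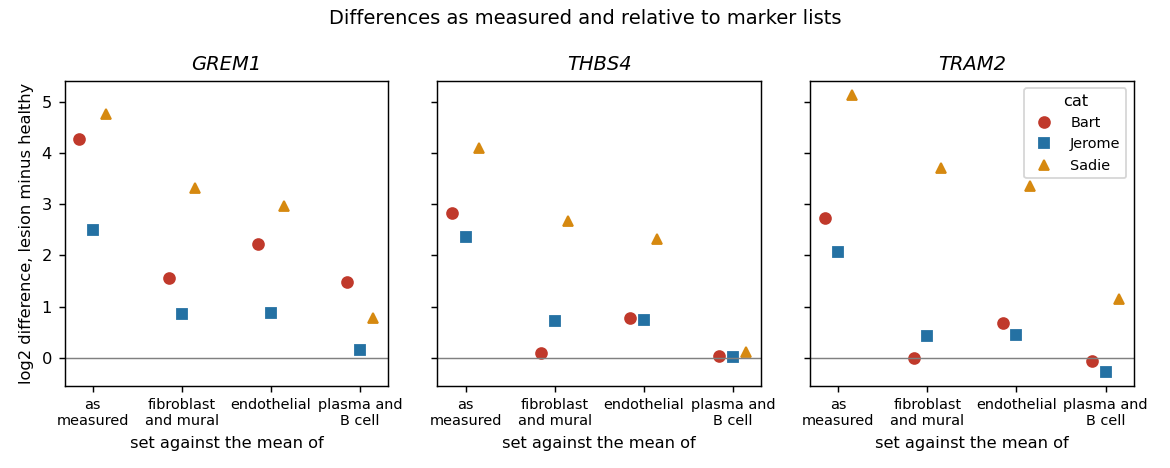
Log2 difference of lesion and healthy mucosa (vertical axis) by cat for GREM1, THBS4 and TRAM2, as measured and after subtracting the mean log2 level of the named markers of each list (horizontal axis). The 3 points of GREM1 stay above 0 against every list, those of THBS4 lie between 0.02 and 0.12 against plasma and B cell markers, and TRAM2 lies on both sides of 0 there.

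Around GREM1, the BMP and TGF-beta pathway was read from a list of 60 antagonists, ligands, receptors, SMADs and targets, of which 14 had a name. Beside GREM1, 13 named members were tested. In the fit without the block, 3 rose in lesions and none fell at an adjusted p under 0.05 in limma. The share that rose was near the 21.1% of named identifiers called higher in that fit. Rows of the study's table with the largest falls in lesions were not analysed. A strongly lower gene of this or another list could therefore lack a name, so the absence of falls shows nothing about a list. ACVRL1, the BMP receptor of endothelium, measured 70.6, 46.4 and 49.9 FPKM in the lesions of Bart, Jerome and Sadie, against 28.0, 20.0 and 18.2 FPKM in healthy mucosa (log2 difference 1.34, standard error 0.26, adjusted p = 0.032 from limma). Its co-receptor ENG, endoglin, measured 412, 223 and 154 FPKM in those lesions, against 98.1, 59.7 and 45.7 FPKM in healthy mucosa (log2 difference 1.91, adjusted p = 0.046). GDF10, a ligand of the family, averaged 7.89 ± 1.65 FPKM in lesions, against 2.18 ± 1.28 FPKM in the healthy biopsies (SD over 3 cats, adjusted p = 0.049 from limma). With a floor of 0.1 FPKM in place of 1, ENG (adjusted p = 0.052) and GDF10 (adjusted p = 0.056) lost their calls, and GDF10 also after quantile normalization (adjusted p = 0.051).

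Other BMP antagonists with a name did not pass limma without the block. Chordin (CHRD), which like gremlin-1 binds BMPs outside the cell, measured 4.83, 3.02 and 4.05 FPKM in lesions, against 1.24, 1.15 and 2.35 FPKM in healthy mucosa (adjusted p = 0.064 from limma, 0.047 with the cat as a block). The related CHRDL1 measured 96.1, 11.8 and 13.6 FPKM in lesions, against 19.7, 8.23 and 10.1 FPKM in healthy mucosa (adjusted p = 0.44). GREM1 was the most abundant of the named antagonists (GREM1, CHRD and CHRDL1) in every lesion, and its ratio to CHRDL1 was lowest in the lesion of Bart. In healthy mucosa GREM1 was near CHRDL1 in Bart (19.9 and 19.7 FPKM), above it in Jerome (21.2 and 8.23 FPKM) and below it in Sadie (6.83 and 10.1 FPKM). BMP1, a protease that cleaves chordin and trims procollagen, averaged 61.7 ± 46.6 FPKM in lesions, against 26.8 ± 9.91 FPKM in the healthy biopsies (SD over 3 cats, adjusted p = 0.27 from limma). GDF15, a stress-induced ligand, measured 9.54, 1.93 and 3.44 FPKM in lesions against 0.465, 0.142 and 0.189 FPKM in healthy mucosa (adjusted p = 0.074). Noggin (NOG) and the ligands BMP2, BMP4 and BMP7 carry no name, so their values were not used here.

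ID1, a BMP target, was the one named member with a negative difference, and it was singled out after its values were seen. It measured 93.1, 67.5 and 107 FPKM in the lesions of Bart, Jerome and Sadie, against 448, 124 and 183 FPKM in their healthy mucosa. The groups did not overlap, and ID1 was lower in the lesion in 3 of 3 cats, where GREM1 was higher, but the log2 difference of -1.30 (standard error 0.49) did not pass limma (adjusted p = 0.13, and 0.070 with the cat as a block). SMAD6, an inhibitor that BMP signals also induce, had the opposite sign, with 104, 29.1 and 11.8 FPKM in lesions, against 27.5, 9.91 and 6.19 FPKM in healthy mucosa (adjusted p = 0.32, and 0.029 with the block).

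The 13 had a median log2 difference of 1.47, against -0.07 over all tested identifiers and 1.26 over those with a name. Of all tested identifiers with a name, 35.4% passed limma in either direction in the fit without the block. In the blocked fit 9 of the 13 passed, where 12.2% of all tested identifiers were called higher. The share of named identifiers that passed there was not computed, so this count is no result about the list. Without the lesion of Jerome or of Sadie, without the healthy biopsy of Jerome or of Sadie, without the cat Jerome or without the cat Sadie limma called none of the 13, although 5 to 8 had an unadjusted p under 0.05, and in the other 3 such fits 1 or 2.

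**Figure D4:**
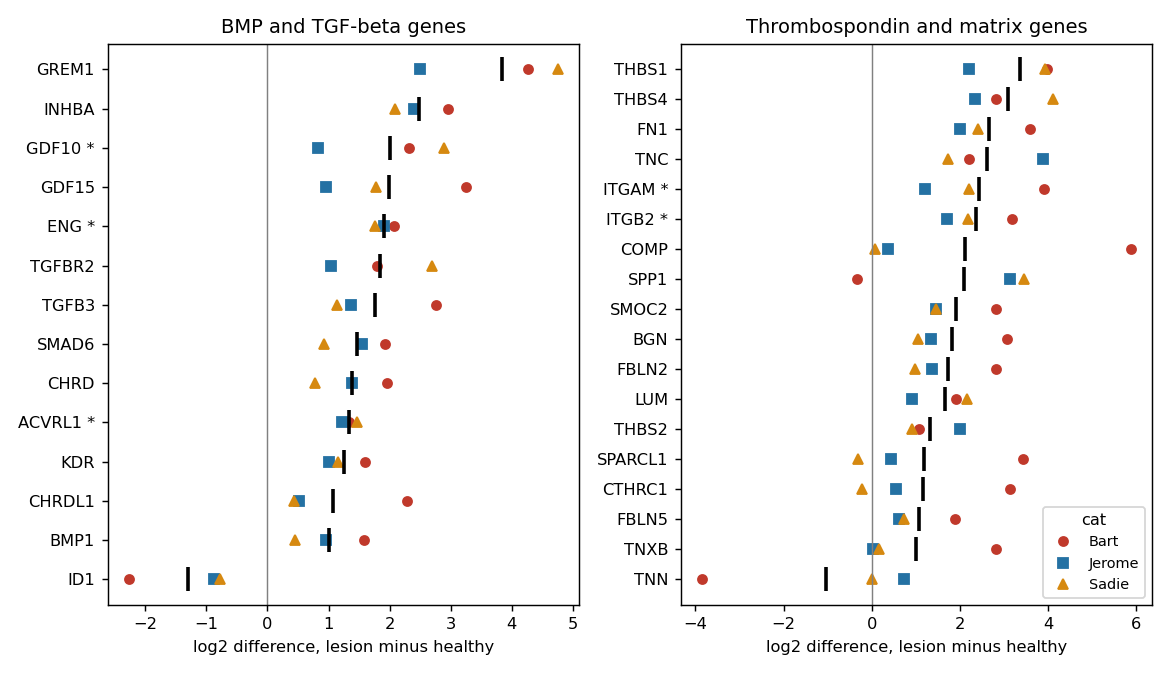
Log2 difference between the biopsies of a cat (lesion minus healthy, horizontal axis) for named genes of the BMP and TGF-beta list (left) and of the thrombospondin and matrix list (right), with 1 symbol per cat and the mean as a black bar. An asterisk marks genes past limma in the fit without the block, and is not drawn for GREM1 and THBS4. ID1 is the gene with 3 negative points, and COMP has a wide gap between Bart, at 5.88, and the other cats.

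Thrombospondins come in 2 subgroups, trimers (THBS1, THBS2) and pentamers (THBS3, THBS4 and COMP), and 4 of these 5 had a name. THBS4 was the one whose lesions all lay above all healthy libraries, as in 16.7% of tested identifiers, and it was picked for this contrast. The other named thrombospondins were also higher in the lesion of every cat, THBS1 by 15.7-fold, 4.58-fold and 15.3-fold in Bart, Jerome and Sadie. THBS1, a regulator of vessel growth and of TGF-beta activation, measured 515, 29.8 and 24.1 FPKM in the lesions of Bart, Jerome and Sadie, against 32.8, 6.51 and 1.58 FPKM in healthy mucosa (log2 difference 3.37, standard error 1.54, adjusted p = 0.20 from limma, and 0.022 with the block). The lesion of Bart thus held far more THBS1 than any other library. THBS2 measured 127, 31.1 and 25.6 FPKM in lesions, against 60.3, 7.72 and 13.6 FPKM in healthy mucosa (adjusted p = 0.38, and 0.041 with the block). COMP, the pentamer of cartilage and tendon, measured 60.6 FPKM in the lesion of Bart but 1.54 and 1.05 FPKM in those of Jerome and Sadie, against 1.03, 1.19 and 0.279 FPKM in healthy mucosa (adjusted p = 0.39).

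THBS4 and COMP were therefore near-equal in the lesion of Bart, at 58.9 and 60.6 FPKM, and far apart in the other lesions. Every named thrombospondin was highest in the lesion of Bart. THBS4 had the narrowest range among lesions, with a highest value 2.69 times the lowest.

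Of 45 genes for thrombospondins, their receptors and other matrix proteins that act on cells, 18 had a name, and of the 17 beside THBS4 limma called 2 higher and none lower, a smaller share than the 21.1% of named identifiers called higher. Both were chains of the leukocyte integrin CD11b/CD18, a receptor of myeloid cells. ITGB2 measured 151, 154 and 133 FPKM in the lesions of Bart, Jerome and Sadie, against 16.7, 47.4 and 29.2 FPKM in healthy mucosa (log2 difference 2.35, standard error 0.38, adjusted p = 0.025 from limma). ITGAM measured 17.2, 4.90 and 5.49 FPKM in lesions, against 1.14, 2.12 and 1.19 FPKM in healthy mucosa (log2 difference 2.44, adjusted p = 0.044), and it did not keep its call with 1 FPKM added (adjusted p = 0.056), with a floor of 0.1 FPKM (adjusted p = 0.052) or with the cat as a block (adjusted p = 0.052). In the blocked fit 7 of the 17 passed, ITGB2 and 6 that are not integrins: THBS1, THBS2, the matrix glycoproteins TNC and FN1, the matricellular SMOC2 and the proteoglycan LUM. The blocked fit called 12.2% of all tested identifiers higher. No share of named identifiers was computed for it, so the count of 7 is no result about the list. FBLN2, fibulin-2 of elastic fibres, averaged 108 ± 81.1 FPKM in lesions, against 27.7 ± 2.52 FPKM in the healthy biopsies (SD over 3 cats, adjusted p = 0.071 from limma). Biglycan (BGN), a small proteoglycan of collagen fibrils, measured 994, 235 and 239 FPKM in lesions, against 119, 92.6 and 115 FPKM in healthy mucosa (adjusted p = 0.091).

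The 17 had a median log2 difference of 1.82, and 13 of them were higher in the lesion of every cat. Without both biopsies of Bart 6 passed, without the lesion of Bart 4, and without the lesion of Jerome or of Sadie, the healthy biopsy of Sadie, the cat Jerome or the cat Sadie limma called 0 (5 to 7 at an unadjusted p under 0.05).

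TRAM2 was read beside 70 genes of ER translocation, ER folding, collagen modification and collagen chains, of which 28 had a name. Beside TRAM2, limma called 8 of 27 higher and none lower. Of the 1292 named identifiers with a positive difference, 31.5% were called higher in the fit without the block. All 28 named genes of this list had a positive difference, so the share of the list was near the background there. Genes with the largest falls could lack a name, so the shared sign is no result about the list. ATP2A3, the SERCA3 calcium pump of blood cells, measured 31.4, 42.1 and 64.8 FPKM in the lesions of Bart, Jerome and Sadie, against 4.54, 9.08 and 7.54 FPKM in healthy mucosa (log2 difference 2.70, standard error 0.38, adjusted p = 0.022 from limma). Its lesion order was that of TRAM2, and ATP2A2, the SERCA2 pump linked to TRAM2, carries no name. DERL3, a factor of ER protein degradation that is abundant in plasma cells, measured 50.1, 129 and 229 FPKM in those lesions, against 8.29, 22.7 and 7.50 FPKM in healthy mucosa (log2 difference 3.34, adjusted p = 0.034). CREB3L2, a transcription factor that acts on secretory genes, averaged 45.5 ± 10.8 FPKM in lesions, against 15.0 ± 5.40 FPKM in the healthy biopsies (SD over 3 cats, adjusted p = 0.034 from limma).

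The enzymes PLOD3 and PLOD1, which hydroxylate lysines of collagen, and LOXL3, which cross-links it, rose as well. PLOD3 measured 70.4, 66.2 and 53.6 FPKM in lesions, against 20.1, 20.3 and 15.2 FPKM in healthy mucosa, the most even difference of the list at 1.71 to 1.81 on the log2 scale in the 3 cats (adjusted p = 0.019 from limma). LOXL3 averaged 16.5 ± 5.50 FPKM in lesions, against 5.73 ± 0.222 FPKM in the healthy biopsies (SD over 3 cats, adjusted p = 0.031 from limma). PLOD1 (log2 difference 1.30, adjusted p = 0.036) and the ER chaperones PDIA4 (1.76, adjusted p = 0.036) and HSP90B1 (1.39, adjusted p = 0.037, but 0.052 with the cat as a block) completed the 8 and are named because they passed. SERPINH1, the chaperone HSP47 that is specific to collagen, measured 351, 126 and 120 FPKM in lesions, against 114, 61.9 and 55.2 FPKM in healthy mucosa (log2 difference 1.26, adjusted p = 0.15, and 0.024 with the block).

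The 28 genes divided by the lesion in which they were highest. In 9 this was the lesion of Sadie, TRAM2 among them, and 7 of the 9 had the full order of TRAM2. These 9 were SSR2, SEC11C, ATP2A3, HSP90B1, PDIA4, DERL3, CREB3L2, FKBP11 and TRAM2 itself. In the other 19 it was the lesion of Bart, with the collagen chains, SERPINH1, the PLOD and LOXL enzymes, FKBP10, PCOLCE, ADAMTS2, BMP1 and P4HA3 all in this group. The named collagen chains were highest in the lesion of Bart, where TRAM2 was lowest. Among them was COL6A3 at 346, 64.9 and 65.3 FPKM in the lesions of Bart, Jerome and Sadie, against 47.7, 20.5 and 17.2 FPKM in healthy mucosa. Of the 1292 named genes with a positive difference, 21.6% had the lesion order of TRAM2, and 4.64% the other order with Sadie highest. The orders with Bart highest took 27.3% and 26.7%, so these orders were common outside the list. The split of the list was seen after the values were known, and it has no test.

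The 27 beside TRAM2 had a median log2 difference of 1.44, and 21 passed in the blocked fit. That fit called 12.2% of all tested identifiers higher. No share of named identifiers was computed for it, so the count of 21 is no result about the list. In the fit without the block, leaving out the lesion of Jerome left 2 that passed, and leaving out the healthy biopsy of Bart left 4. Without both biopsies of Bart 17 did, and without the lesion of Sadie, the healthy biopsy of Jerome or of Sadie, the cat Jerome or the cat Sadie limma called 0 (9 to 18 at an unadjusted p under 0.05).

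**Figure D5:**
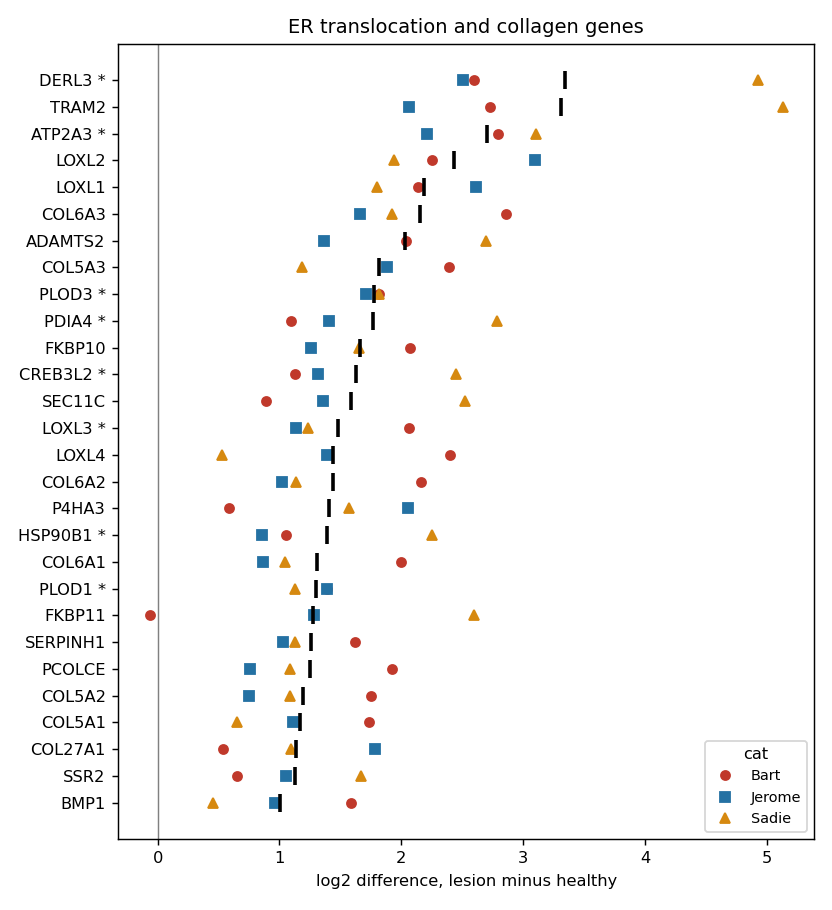
Log2 difference between the biopsies of a cat (lesion minus healthy, horizontal axis) for the 28 named genes of ER translocation, folding and collagen synthesis, with 1 symbol per cat and the mean as a black bar. An asterisk marks genes past limma in the fit without the block, and is not drawn for TRAM2. The point of Sadie lies far right of the others for TRAM2 and DERL3, and that of Bart is the highest for COL6A3, PCOLCE and SERPINH1.

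Profiles over the 6 libraries were compared by the root mean square difference of log2 values, each gene taken relative to its own mean. Near to GREM1 were NAPSA, TGM2, C4BPA and TMEM59L, at distances of 0.53 to 0.55. TGM2, the tissue transglutaminase that cross-links matrix proteins, measured 206, 161 and 124 FPKM in the lesions of Bart, Jerome and Sadie, against 15.9, 23.8 and 9.94 FPKM in healthy mucosa. The gene nearest to THBS4 was C4BPA, a chain of the complement inhibitor C4b-binding protein, at 0.24, with 49.3, 29.9 and 22.3 FPKM in lesions, against 6.61, 5.50 and 1.40 FPKM in healthy mucosa. VWF, MMP19 and TNIP3 were also near, at 0.55 to 0.59. VWF, the clotting factor of endothelium, measured 592, 249 and 190 FPKM in lesions, against 124, 48.8 and 21.2 FPKM in healthy mucosa.

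The gene nearest to TRAM2 was CYBB, the oxidase subunit of phagocytes, at 0.44, with 31.3, 40.5 and 33.1 FPKM in the lesions of Bart, Jerome and Sadie and 3.67, 12.2 and 2.45 FPKM in healthy mucosa. POU2F2, the lymphoid factor Oct-2, followed at 0.45, with 12.3, 18.6 and 24.7 FPKM in lesions, against 1.16, 3.91 and 1.01 FPKM in healthy mucosa, then TMEM176B, GBP5 and TMEM176A at 0.47 to 0.50. No collagen or other matrix gene was among the 5 nearest of TRAM2. The 3 genes were less near to each other, with 0.69 between GREM1 and THBS4, 0.73 between THBS4 and TRAM2 and 0.80 between GREM1 and TRAM2. These distances cover 6 libraries and 1928 named genes other than the gene itself, and each profile holds the tissue difference for which these genes were listed.

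On the RefSeq assembly of the cat, SCG5 and FMN1 are the coding genes on either side of GREM1, and of these SCG5 had a name. It measured 4.50, 8.59 and 37.0 FPKM in the lesions of Bart, Jerome and Sadie, against 0.727, 2.03 and 3.84 FPKM in healthy mucosa (log2 difference 2.51, standard error 0.88, adjusted p = 0.11 from limma), and was looked up after the values of GREM1 were seen. Its lesion order, with Sadie highest and Bart lowest, was not that of GREM1. A long noncoding RNA gene, LOC109502022, overlaps THBS4 on that assembly. None of the sources used here says whether reads were assigned by strand, so reads of the overlapping stretch cannot be told apart.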

How the data were processed

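RNA of 6 biopsies was sequenced from strand-specific libraries of polyadenylated RNA (200 ng of total RNA, 15 cycles of PCR). The authors deposited FPKM per library for 21529 Ensembl identifiers. Cuffnorm, Cufflinks, HISAT and bcl2fastq are the tools in the submitters' processing notes. Versions, genome build and annotation: not given in the sources used here. Labels and paper differ on read length. Being already scaled by transcript length and library, FPKM does not suit a count model, and none was fitted.

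Names came from the study's supplementary table, of which 1981 rows were at hand. The sorted lesion and healthy values of each row, floored at 1 FPKM, matched exactly 1 identifier to 5 significant digits. Rows with fewer than 3 values over that floor (47) and rows whose symbol had become a date (5) were dropped, which left 1929. Table rows with the largest falls in lesions were not analysed here, so genes that fell most could lack a name. The authors' fold changes in that table were not used. Because that table holds genes different by 2-fold or more, a gene without a name was not necessarily unchanged, and counts over lists are no independent evidence of a direction.

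The log2 of FPKM was used with a floor of 1 FPKM, which understates changes of weak genes. Identifiers reaching 1 FPKM in 3 or more of the 6 libraries (13327) went into a two-sided test by limma 3.58.1 (R 4.3.3), tissue as the only term, mean-variance trend and Benjamini-Hochberg adjustment over all of them. The fit was tested on simulated data. Other steps used numpy 2.4.6 and pandas 2.3.3 in Python 3.11.15, and figures matplotlib 3.10.9. Each cat gave both biopsies by the labels, so libraries are paired by cat. The fit with tissue as the only term leaves this pairing out, and the blocked fit keeps it. Deviations from the tissue means correlated across genes at 0.49 (Bart), 0.20 (Jerome) and 0.41 (Sadie) within a cat, and at -0.44 to 0.27 between cats.

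GREM1, THBS4, TRAM2 and the gene lists were chosen with earlier results of these data known. Genes were named by a rule: the 3 genes, their listed partners and paralogs, up to 4 further members of each pathway list with the smallest p, the 2 most abundant named markers of each cell type, and the 5 named genes nearest in profile. Of these, 1 nearest gene is not reported here. Of the marker lists, that of tendon and cartilage had 2 named genes, COMP and SOX9, and neither passed limma (0 with an unadjusted p under 0.05). SOX9 measured 3.54, 26.5 and 13.8 FPKM in lesions of Bart, Jerome and Sadie and 21.6, 21.2 and 34.4 FPKM in healthy mucosa. Of the other lists, limma called 1 of 10 fibroblast and mural, 4 of 12 endothelial, 5 of 13 plasma and B cell and 4 of 12 neutrophil and myeloid markers higher, and 2 of 6 epithelial ones lower. Of named identifiers, 21.1% were called higher and 14.3% lower. In the blocked fit 9, 12, 13 and 10 markers of the first 4 lists passed as higher and 2 epithelial ones as lower. That fit called 12.2% of all tested identifiers higher and 11.1% lower, with no share of named identifiers computed. Without the lesion or the healthy biopsy of Sadie, without the cat Jerome or without the cat Sadie, none of the first 4 lists had a call, though 2 to 11 markers of a list had an unadjusted p under 0.05. MYLPF, the second most abundant muscle marker, measured 0.293, 1043 and 779 FPKM in lesions and 0.157, 4.16 and 374 FPKM in healthy mucosa, and PLVAP, of endothelium, 368, 215 and 203 FPKM in lesions and 81.1, 70.7 and 59.4 FPKM in healthy mucosa. A planned search for promoter motifs was not run.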

Additional observations from a re-analysis of the deposited data

How the results depend on the processing

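The log2 differences of the 3 genes ranged over 13 alternatives from 3.31 to 4.51 for GREM1, from 2.20 to 3.55 for THBS4 and from 2.39 to 3.95 for TRAM2. They moved by less than the SD between cats, and their sign stayed the same. All lesions lay above all healthy libraries for each gene, so leaving out libraries could not change the sign. The block and the floor of 0.1 FPKM leave these differences as they were by construction. The kept sign is therefore no support for the differences. Counts of calls moved far more. With the cat as a block (a paired fit), limma called 1622 identifiers higher and 1476 lower in place of 707 and 881, and 10 named members of the BMP and TGF-beta list, 8 of the thrombospondin and matrix list and 22 of the ER translocation and collagen list. With no filter on low values, which tests 21529 identifiers, it called 98 higher and 143 lower, and 0, 0 and 1 members of those lists (8, 7 and 15 at an unadjusted p under 0.05). A floor of 0.1 FPKM left 1 call on the thrombospondin and matrix list. Leaving out 1 library or 1 cat gave 0 to 1036 identifiers called higher and 0 to 1100 lower, with 0 to 3, 0 to 6 and 0 to 17 members of the lists. The fits without a cat have 4 libraries. The cause of the moves was not tested. Depth is unknown, so precision rests on the spread between 3 cats alone.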
